A study of Mus musculus with 4 samples.

Results

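The genes described here are 44 genes of the mitotic spindle and kinetochore, chosen by name and represented by the brightest probe set whose only gene symbol is that gene. Of the 44, 43 were measured among the 19938 genes named on the arrays. Sgol1 was found under its current symbol Sgo1, and Ccnb1 was not analysed here. The 4 Affymetrix arrays held RNA of KLS cells from mouse bone marrow, which carry c-Kit and Sca-1 and no lineage markers (Lin- c-Kit+ Sca-1+). This is a gate for hematopoietic stem cells and early multipotent progenitors. Both groups came from chimeric C57Bl/6 mice that had been set up with fetal liver cells and carried Klf7+/+ and Klf7-/- marrow cells together. Klf7 encodes a Kruppel-like zinc finger transcription factor. The groups are Klf7-/- KLS cells (knockout, 2 arrays) and Klf7+/+ KLS cells (wild type, 2 arrays), and the comparison asks how the loss of Klf7 bears on their transcripts. The number of mice or donor embryos behind an array and the age of the mice are not given in the labels. The spread between arrays of a group may therefore be technical.

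At mitosis, the kinetochore forms on the centromere and binds spindle microtubules through the NDC80 complex. The spindle checkpoint holds back the anaphase promoting complex until every chromosome is attached. Cyclin-dependent kinase, Aurora and Polo-like kinases drive entry and progress, and kinesins and the central spindle proteins then part the chromatids and the daughter cells. Transcripts of these genes are low in resting cells and accumulate in G2 and M phase. The repressive DREAM complex and the activating B-MYB, MuvB and FOXM1 complexes act on them through a short promoter element, the cell cycle genes homology region (CHR), and NF-Y binds nearby CCAAT boxes. Most long-term stem cells rest, whereas multipotent progenitors in the same gate divide.

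The members share promoter letters that their choice did not use. RefSeq promoter windows of GRCm38.p6, from 250 bases before to 50 bases after a gene's start, were held for 36 of the 44 members. The CHR letters TTTGAA, searched on both strands (TTCAAA on the other), were in a window of 25 of these 36 genes, or 69.4%. The share was 17.3% of the 15614 genes on the array with a window and 20.2% of all 27025 genes of the table. The match lay wholly between 60 bases before and 20 bases after the start in 38.9% of the members and 3.88% of array genes. The variant TTCGAA, which reads the same on both strands, was in 4 members (11.1%, against 2.14% of array genes). CCAAT, on either strand, was in 29 members (80.6%, against 41.7%), and 18 members (50.0%, against 14.3%) held at least 2. Both TTTGAA and CCAAT were in 22 members (61.1%, against 6.89%). Only 1 pair of matches to different motifs overlapped among the members, in Cdca8, where TTTGAA ran into a CCAAT on the other strand that goes past the stretch printed below.

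The stretches from 60 bases before to 20 bases after the start are shown for 7 members with the CHR letters in that stretch. Of these, 6 are genes whose arrays did not overlap between the groups, and Ccnb2 is added for its pair of CCAAT boxes. Capitals mark TTTGAA and CCAAT on either strand (TTCAAA and ATTGG on the other).
Ccnb2: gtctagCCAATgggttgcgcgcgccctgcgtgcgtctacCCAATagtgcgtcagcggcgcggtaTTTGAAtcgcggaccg
Cdc20: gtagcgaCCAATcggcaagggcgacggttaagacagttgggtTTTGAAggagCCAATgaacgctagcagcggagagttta
Cdk1: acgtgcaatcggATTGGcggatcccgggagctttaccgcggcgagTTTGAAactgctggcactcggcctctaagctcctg
Espl1: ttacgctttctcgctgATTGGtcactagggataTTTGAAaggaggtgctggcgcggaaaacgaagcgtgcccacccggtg
Hmmr: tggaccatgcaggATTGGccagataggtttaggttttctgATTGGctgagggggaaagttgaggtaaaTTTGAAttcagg
Kif23: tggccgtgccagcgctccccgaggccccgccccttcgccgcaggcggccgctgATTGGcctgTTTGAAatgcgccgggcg
Cdca8: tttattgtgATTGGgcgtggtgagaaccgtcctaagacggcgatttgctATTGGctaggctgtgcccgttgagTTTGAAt
On GRCm38.p6 these lie at chr9:70421535-70421614 for Ccnb2, chr4:118437324-118437403 for Cdc20, chr10:69352893-69352972 for Cdk1, chr11:40733418-40733497 for Hmmr, chr9:61946780-61946859 for Kif23 and chr4:124936898-124936977 for Cdca8, all on the minus strand, and at chr15:102296233-102296312 for Espl1 on the plus strand. Each stretch has 1 CHR match and at least 1 CCAAT. Both directions of difference occurred with and without the CHR letters in this stretch. Hmmr and Cdca8, with them, were higher in knockout, and Aurka and Spc25, without them in this stretch, were lower. Aurka and Spc25 held the letters past its end, 32 and 24 bases after the start, so they count among the 25 members with TTTGAA. The genes with the highest positive differences, Ndc80 and Nusap1, have no capitals in the same stretch and are shown as well.
Ndc80: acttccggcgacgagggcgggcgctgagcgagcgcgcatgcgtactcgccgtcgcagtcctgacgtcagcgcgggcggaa
Nusap1: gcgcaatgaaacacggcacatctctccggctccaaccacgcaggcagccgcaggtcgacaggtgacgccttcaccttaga
Ndc80 lies at chr17:71526838-71526917 on the minus strand and Nusap1 at chr2:119618238-119618317 on the plus strand. Ndc80 held the CHR letters on the other strand, 29 bases after its start, and Nusap1 held none in its window of 300 bases. A match of letters is not a shown binding site.

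**Figure D1:**
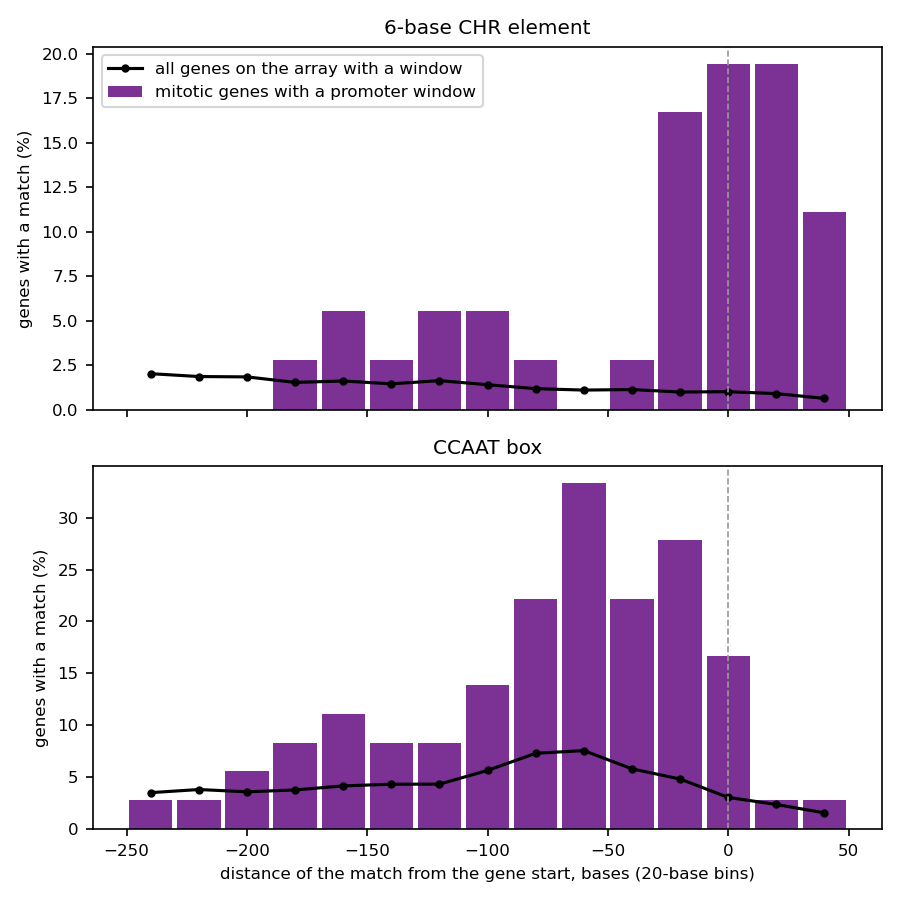
Percent of genes with a match starting in each 20-base bin, by distance from the gene start, for the 36 mitotic genes with a promoter window (bars) and all array genes with one (line); top, the CHR letters, bottom, CCAAT. CHR matches of the mitotic genes gather from 30 bases before the start onward, where 16.7% to 19.4% of the genes have one per bin up to 30 bases after it against about 1% of array genes, and CCAAT matches peak between 70 and 50 bases before it, at 33.3%.

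No member passed the threshold between knockout and wild type. In limma's fit over all 28939 probe sets (Benjamini-Hochberg adjusted p under 0.05), 0 of 43 members passed, and the lowest adjusted p was 0.945. Of all probe sets 0.00346% passed and of all named genes 0.00502%, in both cases the single gene Xist. At an unadjusted p under 0.05 there were 2 members, Ndc80 and Cdc25c, or 4.65%, against 4.81% of all named genes. Differences below are log2 values, knockout minus wild type, each with limma's moderated standard error (SE, n = 2 per group), and levels as log2 probe set intensity.

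The members spread to both sides of 0. Of 43, 16 were higher and 27 lower in knockout (62.8% lower, against 55.0% of all named genes). The median difference was -0.07, with quartiles of -0.22 and 0.25. All but 1 member, Kif20a, lay above the median level of all probe sets, so the fair background is the 10343 named genes above it. Of these genes 48.9% were lower, and their median difference was 0.01 with quartiles of -0.16 and 0.21. The arrays of the groups did not overlap for 13 members, or 30.2%, against 33.2% of all named genes and 32.8% of those above the median level. Of the 13, 4 were higher in knockout (9.3%, against 14.5% of all named genes and 17.8% of those above the median level) and 9 lower (20.9%, against 18.6% and 15.0%). The 1 member both non-overlapping and at least 2-fold apart was Ndc80 (2.33%, against 1.22% of all named genes and 1.96% of those above the median level). The share without overlap in either direction and the 2-fold share are near the background. The split between higher and lower moved with the arrays used, as given below.

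The 95% confidence interval of the difference lay wholly within 2-fold in either direction for 25 members and reached past 2-fold for 18. For the 25, which include Top2a, Mki67, Cdk1, Plk1, Aurka and Aurkb, a 2-fold change in either direction lies outside the interval. For the 18, among them Ndc80, Cenph, Nusap1, Kif2c and Bub1, a 2-fold change in at least 1 direction lies inside it. The member SE ran from 0.15 to 0.60.

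**Figure D2:**
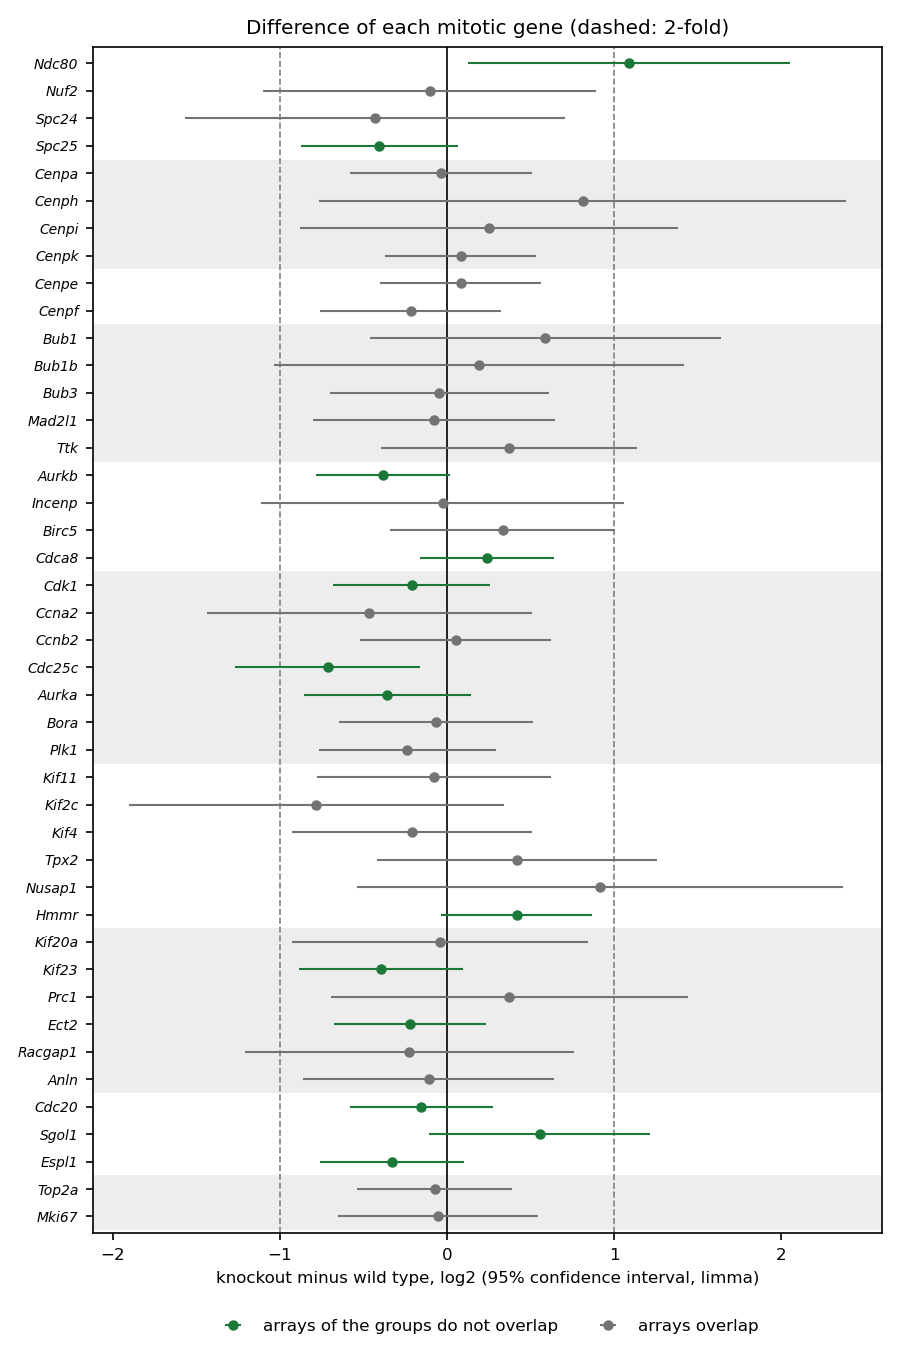
Difference of each of the 43 mitotic genes, in log2 units (knockout minus wild type), with its 95% confidence interval from limma; green marks the 13 genes whose arrays do not overlap between groups, grey the other 30, and dashed lines 2-fold. Points lie on both sides of 0, from -0.78 for Kif2c to 1.09 for Ndc80.

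The 4 subunits of the NDC80 complex, the rod that couples kinetochores to microtubules, did not move as a unit. Ndc80, the microtubule-binding subunit, read 7.48 and 8.48 in the knockout arrays against 6.99 and 6.79 in the wild-type arrays. Both knockout arrays were above both wild-type arrays, yet they lay 1.00 apart from each other. The difference was 1.09 ± 0.37, with a limma adjusted p of 0.945, and it was 0.59 without knockout replicate 2. Nuf2, its direct partner in the complex, differed by -0.10 ± 0.38 and was highest in wild-type replicate 2. Spc25, of the kinetochore-facing pair, read 7.0025 and 6.7342 in the knockout arrays against 7.33 and 7.21 in the wild-type arrays. It lay on the opposite side to Ndc80 without overlap, with a difference of -0.40 ± 0.18. Spc24, the other subunit of that pair, read 7.12 and 8.04 in the knockout arrays against 7.60 and 8.42 in the wild-type arrays, so its groups overlapped, and its difference was -0.43 ± 0.43.

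In the inner kinetochore, 3 of 4 measured genes were higher in knockout, where 55.0% of all named genes and 48.9% of those above the median level were lower. None of the 4 was without overlap, against 33.2% of all named genes and 32.8% of those above the median level. Cenph, a subunit of the network that sits on centromeric chromatin, read 8.17 and 8.15 in the knockout arrays against 8.23 and 6.47 in the wild-type arrays. Wild-type replicate 2 alone stood low, and the difference of 0.81 ± 0.60 became -0.07 without it. Cenpi, from the same network and on the X chromosome, read 6.47 and 6.17 in the knockout arrays against 6.66 and 5.47 in the wild-type arrays. Its difference of 0.25 ± 0.43 likewise became -0.34 without wild-type replicate 2. Cenpk, another subunit, and Cenpa, the histone H3 variant that marks the centromere, differed by 0.08 ± 0.17 and -0.04 ± 0.21. In the corona, the fibrous outer layer, the kinesin Cenpe read 7.56 and 7.24 in the knockout arrays against 7.29 and 7.35 in the wild-type arrays, a difference of 0.08 ± 0.18. Cenpf, a large microtubule-binding protein, read 6.96 and 6.53 in the knockout arrays against 6.98 and 6.95 in the wild-type arrays, a difference of -0.22 ± 0.21 made by knockout replicate 2. Both genes overlapped between the groups.

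None of the 5 spindle checkpoint genes was without overlap, against 33.2% of all named genes and 32.8% of those above the median level. Bub1, a kinase that recruits the checkpoint to kinetochores, read 8.10 and 7.71 in the knockout arrays against 6.79 and 7.84 in the wild-type arrays. Only wild-type replicate 1 stood low, and the difference of 0.59 ± 0.40 was 0.06 without that array. Ttk, which encodes the kinase MPS1 at the head of the checkpoint, read 7.50 and 6.75 in the knockout arrays against 6.76 and 6.75 in the wild-type arrays. Here 1 knockout array stood high over 3 nearly equal ones, and the difference was 0.37 ± 0.29. Bub1b, Bub3 and Mad2l1, which make up the complex that inhibits CDC20, differed by 0.19 ± 0.47, -0.05 ± 0.25 and -0.08 ± 0.28.

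The chromosomal passenger complex corrects faulty attachments, and its genes lay on both sides. Aurkb, its kinase, read 7.42 and 7.37 in the knockout arrays against 7.80 and 7.75 in the wild-type arrays. Arrays of a group lay 0.04 apart in knockout and 0.05 in wild type, and the difference of -0.38 ± 0.15 had the smallest SE of all members. The unadjusted p was 0.0580 and the limma adjusted p 0.945. Cdca8, which encodes borealin, read 6.80 and 6.87 in the knockout arrays against 6.61 and 6.58 in the wild-type arrays, again without overlap but the other way, at 0.24 ± 0.15. Birc5, which encodes survivin, read 8.18 and 7.60 in the knockout arrays against 7.43 and 7.69 in the wild-type arrays and overlapped, with a difference of 0.33 ± 0.26. It was 0.04 without knockout replicate 1 and 0.62 without knockout replicate 2. The scaffold gene Incenp differed by -0.02 ± 0.41, and its wild-type arrays lay 1.05 apart.

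Among cyclins and mitotic kinases, 6 of 7 measured genes lay lower in knockout, as did 55.0% of all named genes and 48.9% of those above the median level. Of the 7, 3 were lower without overlap, against 18.6% of all named genes and 15.0% of those above the median level. Cdc25c, the phosphatase that activates CDK1 at mitotic entry, read 5.87 and 5.44 in the knockout arrays against 6.32 and 6.42 in the wild-type arrays. Its difference of -0.71 ± 0.21 had the smallest unadjusted p of all members, 0.0220, with a limma adjusted p of 0.945. It lay between -0.93 and -0.49 with any single array left out. Aurka, the centrosomal Aurora kinase, read 5.94 and 5.98 in the knockout arrays against 6.14 and 6.49 in the wild-type arrays, a difference of -0.36 ± 0.19. Cdk1, the master kinase of mitosis, read 7.47 and 7.71 in the knockout arrays against 7.89 and 7.73 in the wild-type arrays. The edges of its groups nearly touched, and the difference was -0.21 ± 0.18. Ccna2, the cyclin of S and G2 phase, read 7.35 and 6.75 in the knockout arrays against 7.93 and 7.10 in the wild-type arrays and overlapped, with a difference of -0.46 ± 0.37. It was -0.05 without wild-type replicate 1 and -0.88 without wild-type replicate 2. Plk1, the Polo-like kinase, and its activator Bora differed by -0.24 ± 0.20 and -0.07 ± 0.22, and Ccnb2, a B-type cyclin, was the 1 gene of this group on the higher side, at 0.05 ± 0.22.

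The motors and microtubule-binding proteins of the spindle held the second largest positive and the largest negative difference. Nusap1, which bundles spindle microtubules, read 8.16 and 7.61 in the knockout arrays against 7.73 and 6.21 in the wild-type arrays. Wild-type replicate 2 stood far below the others, and the difference of 0.92 ± 0.55 was 0.16 without it. Kif2c, a kinesin that depolymerizes microtubules at centromeres, read 5.49 and 5.92 in the knockout arrays against 7.05 and 5.92 in the wild-type arrays. Wild-type replicate 1 stood above the rest, and the difference of -0.78 ± 0.43 was -0.21 without that array. Hmmr, a spindle assembly factor also known as RHAMM, read 6.44 and 6.66 in the knockout arrays against 6.07 and 6.20 in the wild-type arrays, a difference of 0.42 ± 0.17 without overlap. Tpx2, the activator of Aurora A, differed by 0.42 ± 0.32, the bipolarity kinesin Kif11 by -0.08 ± 0.27 and the X-linked chromokinesin Kif4 by -0.21 ± 0.27, all 3 with overlap.

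Of the 6 cytokinesis genes, 5 were lower in knockout. Of all 6, 2 were lower without overlap, against the same 18.6% of all named genes and 15.0% of those above the median level. Kif23, the kinesin of the centralspindlin complex, read 8.25 and 8.14 in the knockout arrays against 8.75 and 8.43 in the wild-type arrays, a difference of -0.40 ± 0.19. Ect2, the exchange factor that activates RhoA at the division plane, read 7.20 and 7.12 in the knockout arrays against 7.26 and 7.50 in the wild-type arrays, a difference of -0.22 ± 0.17. Racgap1, the partner of Kif23 in centralspindlin, differed by -0.23 ± 0.37 with overlap, and Anln, the scaffold protein anillin, by -0.11 ± 0.29. Prc1, which crosslinks the central spindle, read 7.10 and 6.97 in the knockout arrays against 7.23 and 6.09 in the wild-type arrays. It is a further gene with wild-type replicate 2 alone at the bottom, and its difference of 0.37 ± 0.41 became -0.20 without that array. Kif20a, the dimmest member, read 5.52 and 5.27 in the knockout arrays against 5.88 and 4.998 in the wild-type arrays, so the wild-type arrays enclosed the knockout arrays and the difference was -0.04 ± 0.34.

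The 3 genes of chromatid separation did not share a direction, and all 3 were without overlap, as were 33.2% of all named genes and 32.8% of those above the median level. Espl1, the separase that cleaves cohesin, read 6.00 and 6.16 in the knockout arrays against 6.46 and 6.36 in the wild-type arrays, a difference of -0.33 ± 0.16. Cdc20, the activator of the anaphase promoting complex, read 6.15 and 6.28 in the knockout arrays against 6.43 and 6.30 in the wild-type arrays. Its groups were almost in contact, and the difference was -0.15 ± 0.16. Sgol1, the shugoshin that protects centromeric cohesin from separase, read 7.12 and 7.25 in the knockout arrays against 6.93 and 6.33 in the wild-type arrays, a difference of 0.56 ± 0.25. It was 0.26 without wild-type replicate 2.

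The general proliferation markers differed little. Top2a, the topoisomerase that untangles chromatids and the brightest member, read 9.89 and 9.64 in the knockout arrays against 9.90 and 9.78 in the wild-type arrays, a difference of -0.07 ± 0.18 with a 95% confidence interval of -0.54 to 0.39. Mki67, which encodes the Ki-67 antigen, read 8.55 and 8.64 in the knockout arrays against 8.91 and 8.39 in the wild-type arrays, a difference of -0.05 ± 0.23 with an interval of -0.65 to 0.55. Both genes overlapped between the groups. A second Top2a probe set read 5.70 and 8.61 in the knockout arrays against 5.17 and 6.38 in the wild-type arrays. Its difference of 1.38 ± 1.05 rested on knockout replicate 2, and Top2a was the 1 member with more than 1 probe set of its own.

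**Figure D3:**
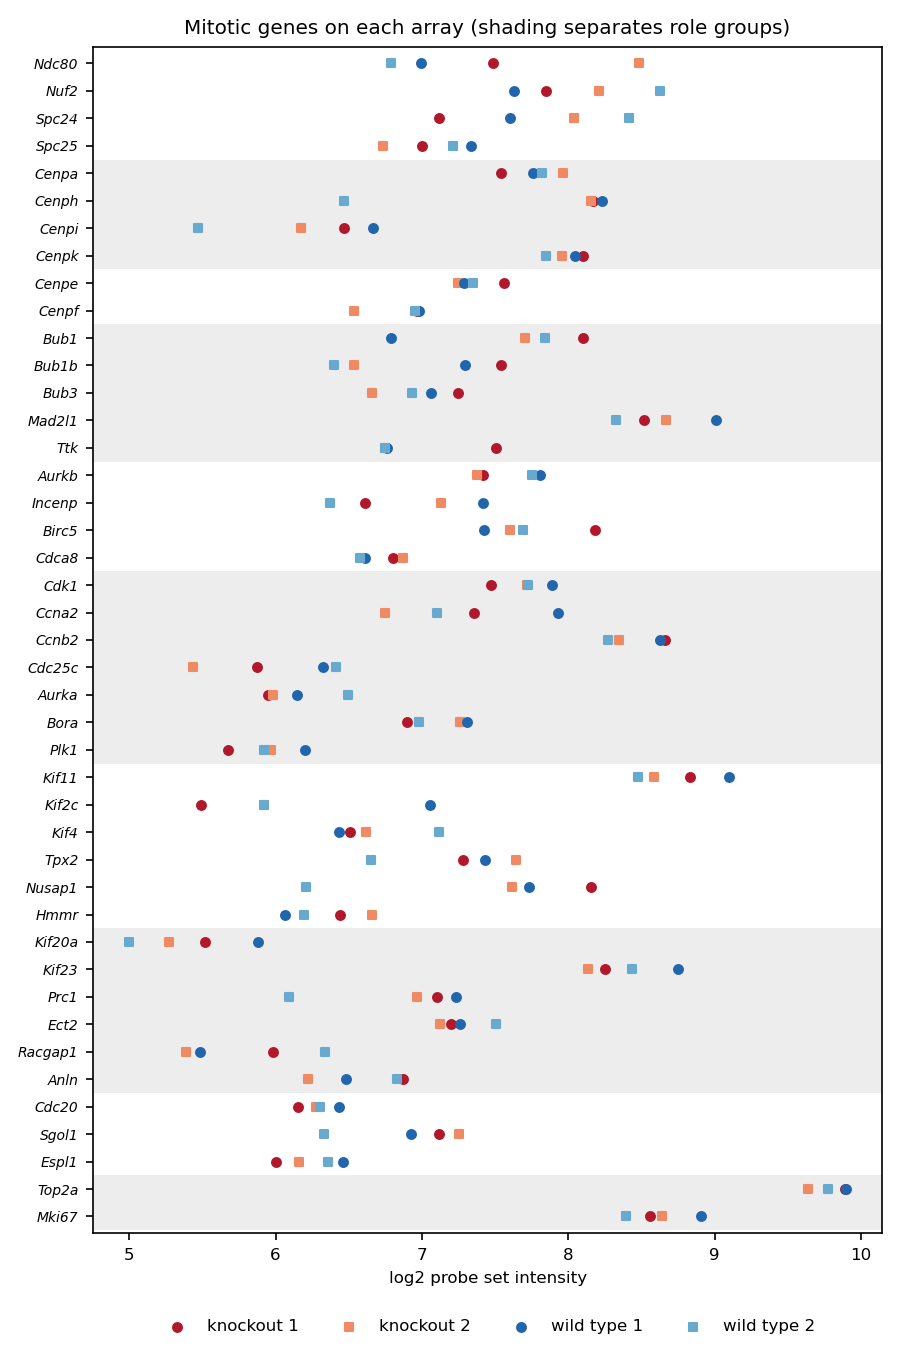
Log2 probe set intensity of the 43 mitotic genes on each array, in rows ordered and shaded by role group; red and orange are knockout, dark and light blue wild type, circles replicate 1 and squares replicate 2. Levels of different genes come from different probe sets and are not comparable. Orange squares of Ttk and Kif2c are hidden under the light blue ones, at nearly the same value. Light blue squares stand apart on the left for Cenph, Cenpi, Nusap1 and Prc1.

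Arrays of a group differed by more than the groups did for most members. The gap between the knockout arrays was larger than the difference of the groups for 24 of 43 members, that between the wild-type arrays for 28, and at least 1 of these gaps for 33. The median gap was 0.30 within knockout and 0.35 within wild type, against a median absolute difference of 0.24. For named genes above the median level the same 3 values were 0.25, 0.26 and 0.18, so the median gaps exceeded the median difference there as well. A gap between 2 single arrays varies more than a difference of 2-array means. The share of all genes with such gaps is not given here, so the 3 counts are no trait of the members. The wild-type arrays lay at least 2-fold apart for 7 members (16.3%, against 7.19% of named genes above the median level), and the knockout arrays for 1 (2.33%, against 5.54%).

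By the median over members, both replicate 1 arrays stood above both replicate 2 arrays, by a small margin for knockout replicate 1. Each member's log2 value was set against its mean over the 4 arrays, and the median over members was 0.15 in wild-type replicate 1, 0.07 in knockout replicate 1, -0.04 in wild-type replicate 2 and -0.05 in knockout replicate 2. Over named genes above the median level these medians ran only from -0.03 to 0.01. With quantile normalization the member median was 0.0061 in knockout replicate 1 against -0.0256 in wild-type replicate 2. With cyclic loess these values were 0.0152 and -0.0344. Wild-type replicate 1 was the highest array for 20 of 43 members (46.5%, against 26.7% of named genes above the median level). Wild-type replicate 2 was the lowest for 16 (37.2%, against 29.9%). In 6 members, Cenph, Nusap1, Cenpi, Prc1, Tpx2 and Sgol1, it lay at least 0.50 under every other array (4.54% of named genes above the median level did so). No knockout array did this for any member. The split of members between higher and lower moved with the arrays used. It was 20 lower and 23 higher without wild-type replicate 1, 21 lower and 22 higher without knockout replicate 2, 26 lower and 17 higher without knockout replicate 1, and 29 lower and 14 higher without wild-type replicate 2. Whether the share of dividing cells or the RNA per cell differed between these arrays cannot be told apart in bulk samples.

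**Figure D4:**
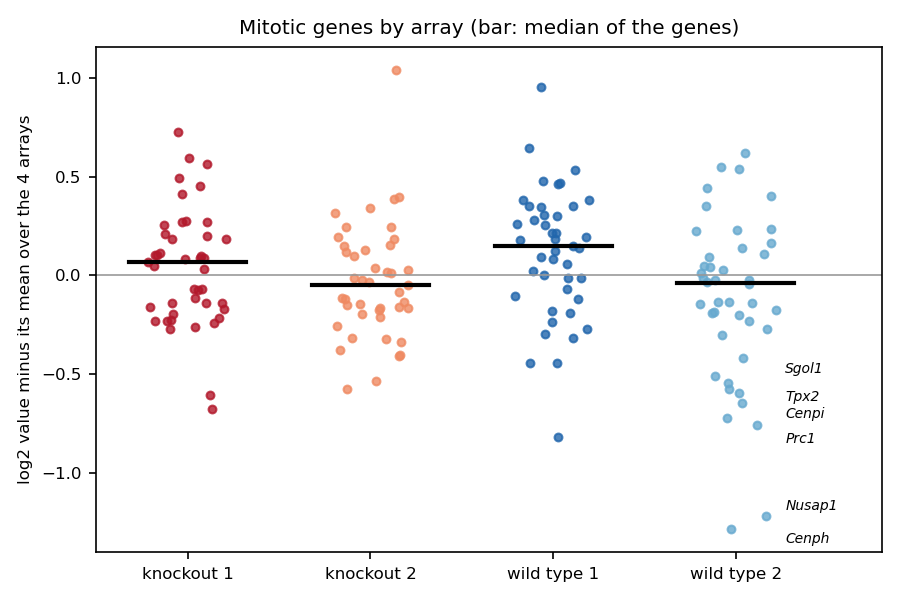
Each mitotic gene's log2 value minus its mean over the 4 arrays, 1 point per gene and array, with the median of the 43 genes as a bar; horizontal scatter is random. The median is highest in wild-type replicate 1 at 0.15, and Cenph, Nusap1, Prc1, Cenpi, Tpx2 and Sgol1 form the low tail of wild-type replicate 2.

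The members with and without the CHR letters TTTGAA were compared as a description, a grouping made after the values were seen. Of the 25 measured members with TTTGAA in a window, 18 were lower in the knockout, and their median was -0.11 over a range of -0.78 to 1.09. Of the 10 with a window but without TTTGAA, 8 were higher, and their median was 0.29 over a range of -0.10 to 0.92. Among these 10, Bub1 and Sgol1 held the variant TTCGAA, with differences of 0.59 and 0.56, so the 10 do not all lack CHR letters. Of the 8 measured members with no window in the table, 7 were lower, with a median of -0.22 over a range of -0.71 to 0.42. The 10 without the letters include Cenph, Cenpi, Nusap1 and Sgol1, 4 of the 6 genes that stood low in wild-type replicate 2, and without that array their median was 0.13 with 6 of 10 higher. Their lowest median with an array left out was 0.09, without knockout replicate 1, with 8 of 10 higher. The 25 with the letters had a median of -0.18 without wild-type replicate 2 and of 0.00 without knockout replicate 2, where 12 were higher and 13 lower.

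Other cell division genes gave no call either. Of 121 genes measured in 6 further lists, 0 passed in limma, 11 had an unadjusted p under 0.05 (9.09%, against 4.81% of all named genes), and 30.6% were without overlap (against 33.2%). In the anaphase promoting complex, the ubiquitin ligase that ends mitosis, 11 of 17 were higher, with a median of 0.19. Its subunits Cdc27 and Cdc23 stood on opposite sides, at 0.69 ± 0.36 and -0.50 ± 0.23. Among 13 MuvB, DREAM and FoxM1 regulators, which act on the CHR, 11 were higher with a median of 0.16. The pocket protein gene Rbl1 read 7.80 and 8.06 in the knockout arrays against 7.62 and 6.12 in the wild-type arrays, a difference of 1.06 ± 0.52 with wild-type replicate 2 far below the other arrays. E2f5, an E2F of the repressive kind, read 5.94 and 5.94 in the knockout arrays against 5.46 and 5.23 in the wild-type arrays, a difference of 0.59 ± 0.17 without overlap.

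Cohesin and condensin genes, which shape mitotic chromosomes, had a median of -0.02 over 17, with the condensin subunit Ncaph at -0.61 ± 0.26 and the cohesin regulator Pds5b at 0.47 ± 0.20. The 24 other centromere and kinetochore genes divided into 12 higher and 12 lower. Cenpp, of the inner kinetochore, read 6.24 and 5.85 in the knockout arrays against 4.96 and 4.67 in the wild-type arrays. Its difference of 1.23 ± 0.22 exceeded that of any member, without overlap and with a limma adjusted p of 0.945. Cenpl, of the same network, differed by 0.95 ± 0.34. The 24 other spindle and mitotic genes had a median of -0.01. Cep55, which recruits the abscission machinery, read 5.90 and 5.50 in the knockout arrays against 6.53 and 6.50 in the wild-type arrays, a difference of -0.82 ± 0.20. Kif20b, another kinesin, differed by 0.75 ± 0.24. In the S phase list 19 of 26 genes were higher with a median of 0.13, led by the chromatin assembly gene Chaf1b at 0.81 ± 0.15 and the polymerase gene Pole at 0.74 ± 0.23. On wild-type replicate 2 the median deviation was -0.18 for the S phase list, -0.18 for the other spindle genes, -0.17 for the other centromere genes, -0.16 for the CHR regulators, -0.08 for cohesin and condensin and -0.01 for the anaphase promoting complex.

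The CHR letters were in promoter windows of 59.1% of the other spindle and mitotic genes (13 of 22) and of 9.52% of the S phase genes (2 of 21). For cohesin and condensin the share was 46.2% (6 of 13), for the other centromere genes 39.1% (9 of 23), and for the anaphase promoting complex 18.8% (3 of 16). Among the regulators it was 33.3% (3 of 9). CCAAT was in 71.4% of the S phase genes (15 of 21) and in 59.1% of the other spindle and mitotic genes (13 of 22).

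**Figure D5:**
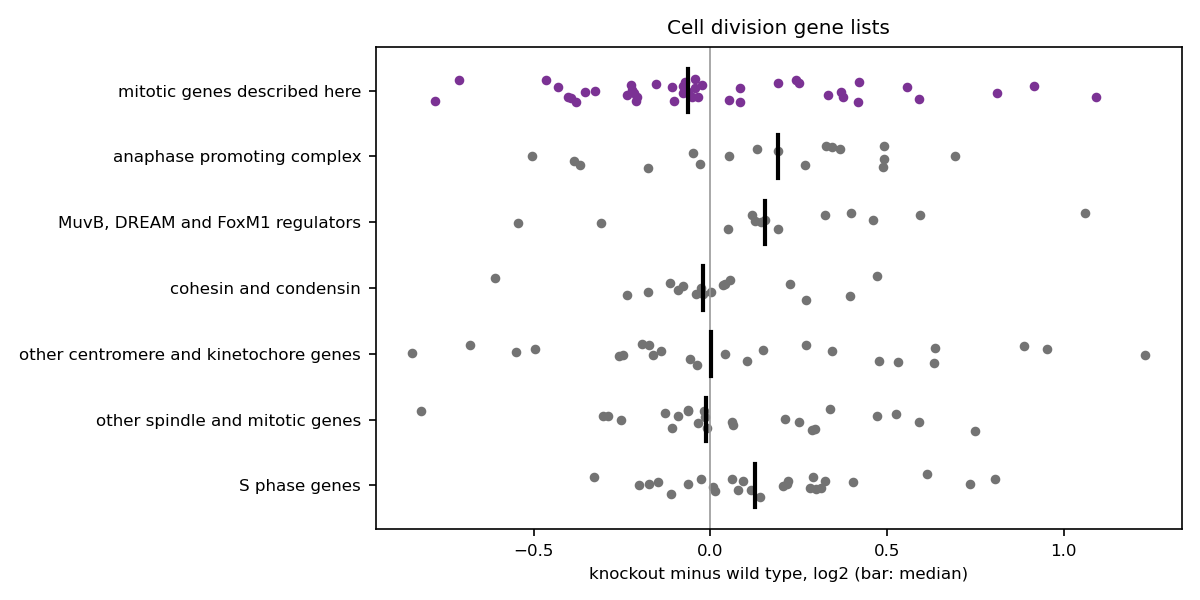
Differences of single genes in log2 units (knockout minus wild type), for the 43 mitotic genes (purple) and 6 further cell division lists (grey), with the list median as a bar; vertical scatter is random. Medians run from -0.07 for the mitotic genes to 0.19 for the anaphase promoting complex.

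Facts of the whole data set bear on these values. Median intensity per array lay between 51.01 and 52.26. Klf7 itself read 6.59 and 6.18 in the knockout arrays against 5.95 and 6.10 in the wild-type arrays, so its signal was no lower in the libraries labelled Klf7-/-. The labels do not name the deleted part of the gene, so its probe set may check nothing. Xist, the RNA of the inactive X chromosome, read 11.76 and 11.58 in the knockout arrays against 5.24 and 4.80 in the wild-type arrays, so donor sex and genotype cannot be told apart, which bears on the X-linked Cenpi and Kif4. Of the 10 measured markers of the stem and progenitor gate 8 were higher in knockout, where 55.0% of all named genes and 48.9% of those above the median level were lower. Of the 10, 7 were higher without overlap, against 14.5% of all named genes and 17.8% of those above the median level. Among them were Kit at 0.39 ± 0.17 and Cd34 at 0.62 ± 0.15. The stem cell transcription factor gene Mecom had the largest absolute difference of the 10, on the lower side without overlap, at -0.71 ± 0.25. Their summed intensity was 6500 and 6040 in the knockout arrays against 5530 and 4530 in the wild-type arrays, lowest in wild-type replicate 2 as for many mitotic genes. Granulocyte markers summed to 4320 and 2280 against 3470 and 2960, and B cell markers to 616 and 255 against 315 and 261, where Vpreb1 stood at 8.59 in knockout replicate 1. Erythroid markers summed to 1170 and 898 against 809 and 959, T cell markers to 282 and 303 against 321 and 368, and megakaryocyte markers to 803 and 647 against 761 and 560. The part of these markers in the mitotic values was not tested.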

How the data were processed

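Total RNA of sorted KLS cells was amplified with the NuGen Ovation system and biotin-labelled, per the labels' protocols. The authors deposited 1 table with a probe set intensity per array; the submitters' processing notes name RMA and Affymetrix Expression Console, with no settings. The values reached 19067 and were read as linear, and log2 was taken with no further normalization. The first 6615 probe sets, which precede the first one in the platform annotation, were assumed to be controls and left out, and 28939 were tested. The annotation gave 1 symbol for 21789, several for 1621 and none for 5529; symbols were updated through Entrez IDs, 21698 of which were in RefSeq's GRCm38.p6 gene table. Genes took their brightest probe set. Groups and replicate numbers came from sample titles. The groups were compared by limma 3.58.1 under R 4.3.3 (lmFit, eBayes, two-sided, Benjamini-Hochberg over all probe sets, threshold 0.05, 2 residual degrees of freedom), tested on simulated data with known changes. Counts without overlap and medians are descriptions. The members and lists were chosen with earlier results of these data known. Values on all arrays are given for members without overlap, the 2 largest absolute differences per role group, and the brightest and dimmest member; of each further list, the 2 largest differences are named. Other genes named with values (Kit, Cd34, Mecom and Vpreb1 as markers) were chosen after their values were seen. Detection calls were not used here, and the number of arrays limits precision. The alternatives tried were a dim probe set filter, quantile normalization, cyclic loess, an offset of 32, an intensity trend, the replicate block, each array left out, and the mean of a gene's probe sets.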

Additional observations from a re-analysis of the deposited data

How the results depend on the processing

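The count of members past the threshold was 0 in limma under all 11 alternatives, as was that of the further lists. The count of probe sets past the threshold, 1 as reported, was 0 with quantile normalization, an offset of 32, an intensity trend or the replicate block, and 0 to 0 with each array left out. Across all probe sets, dim ones included, the deviations of same-numbered arrays from their group means had a correlation of 0.0434. The labels do not say whether same-numbered arrays share mice, and this value cannot settle it. Nor does it settle pairing for the members, whose medians were higher on both replicate 1 arrays. Under the replicate block the SE fell for some members, such as Spc24 (0.43 to 0.16). It rose slightly for others, such as Bub1 (0.40 to 0.42), and 0 members passed. The 1 member at least 2-fold apart became 0 with an offset of 32 and ran from 1 to 3 when single arrays were dropped: Ndc80 without knockout replicate 1, Nusap1 without knockout replicate 2, Cenph, Ndc80 and Nusap1 without wild-type replicate 1, and Bub1 and Kif2c without wild-type replicate 2. The median difference of the members, -0.07, lay between -0.13 and 0.054 when single arrays were dropped, with the highest value, 0.0537, without wild-type replicate 1; the cause was not tested. The counts without overlap were 16 of 43 (37.2%) with quantile normalization or cyclic loess, against 13 (30.2%) as reported. The share over all named genes under these 2 settings is not given here. The sign turned for Top2a with the mean of its probe sets (0.66), which takes in the second probe set at 1.38. With arrays left out, the difference crossed 0 for 22 of 43 members and kept its sign for 21. Among the 22, members with values on all arrays in the text ranged from -0.89 to 0.0288 for Spc24, -0.0747 to 0.24 for Cenpe, -0.0092 to 0.75 for Ttk, -0.48 to 0.40 for Kif20a, -0.20 to 0.0543 for Top2a, -0.31 to 0.20 for Mki67, -0.0713 to 1.69 for Cenph, -0.34 to 0.85 for Cenpi and -0.20 to 0.95 for Prc1. No detection calls were used here, so which members lie above background was not tested.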
